A study of Mus musculus with 3 samples.

Results

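Homozygous Arid1a knockout MIN6 cells were compared with heterozygous Arid1a knockout MIN6 cells by the places in the genome where only 1 of the 2 clones had an H3K27ac peak. Overlapping peaks of the 2 knockout libraries were merged into 41933 regions. A region was homozygous-only, or heterozygous-only, when its peaks came from that library alone and the nearest peak of the other knockout lay more than 1 kb away. There were 9566 homozygous-only regions, which is 22.8% of the merged regions, and 6749 heterozygous-only regions, which is 16.1%. These 16315 one-sided regions are described here. Of the others, 21593 held peaks of both knockouts, and 4025 held a peak of 1 knockout with a peak of the other within 1 kb. The wild-type library took no part in forming the sets and is given as a separate readout.

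MIN6 is a mouse insulinoma line used as a model of the pancreatic beta cell. All 3 clones came from 1 procedure, in which cells with a stable, blasticidin-selected Cas9 lentivirus were infected with a lentivirus carrying an Arid1a guide and selected with puromycin. Clones grown from single cells were then assigned to homozygous knockout, heterozygous knockout or wild type by PCR genotyping and an ARID1A Western blot. Each genotype had 1 H3K27ac ChIP-seq library, so no difference carries a test, and genotype cannot be told apart from the clone or the library. The wild-type clone had passed through the same infections and selections, per the labels. The guide is the one that the labels give for the procedure, with the TGG that Cas9 requires beside its target (the PAM) in capitals.
Arid1a guide with its PAM: gctgctgctgatacgaaggtTGG

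H3K27ac is an acetylation of histone H3 that marks active promoters and active enhancers. ARID1A is a subunit of the canonical BAF form of SWI/SNF, a complex that uses ATP to move or evict nucleosomes and that binds many enhancers. Histone acetylation at enhancers depends on enzymes such as p300 and CBP, whose access to chromatin is one of the steps in which SWI/SNF takes part.

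The deposited lists held 34298 homozygous, 31365 heterozygous and 41490 wild-type peaks, covering 20.2, 17.5 and 25.1 Mb. Their median −log10 q, the strength of a peak in its own library, was 22.6 in the homozygous, 18.5 in the heterozygous and 19.0 in the wild-type list. The lowest background solved from the deposited values, a stand-in for depth, was 1.73 reads in the homozygous, 1.73 in the heterozygous and 2.17 in the wild-type library. Of 14 beta cell markers, 13 had a peak at a listed start in the homozygous, 12 in the heterozygous and 13 in the wild-type library, and all 14 had a peak nearby in each. Arid1a itself had 6 regions in the homozygous library and 4 in the heterozygous library, with 5 wild-type peaks. All 3 libraries had a peak at its start, and these peaks do not test the genotype. A region without a peak is one where none was called, which does not show that the mark was absent. In bulk chromatin, fewer cells with the mark and less of the mark per cell cannot be told apart.

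The gene starts under the 3 strongest peaks of each set that cover a listed start are printed with every CG dinucleotide in capitals. They are examples and do not stand for the sets as a whole. CG-rich starts are typical of widely used promoters and CG-poor starts of tissue-restricted ones. Each sequence covers 250 bases before to 50 after the listed start, from RefSeq on GRCm38.p6, the assembly of mm10. Agbl3, a cytosolic carboxypeptidase that trims glutamate from proteins, carried the strongest homozygous-only peak at a gene start. Bcl2l14, a BCL2 family member, carried one that wild type did not share, and Inava, a regulator of innate immune signalling, carried another. Cdca7l, a MYC-interacting nuclear protein, carried the strongest heterozygous-only one. Higd1a, a mitochondrial protein induced by hypoxia, and Sh3d21, a protein with SH3 domains, carried the others.
Agbl3, homozygous-only, chr6:34780182-34780481, plus strand: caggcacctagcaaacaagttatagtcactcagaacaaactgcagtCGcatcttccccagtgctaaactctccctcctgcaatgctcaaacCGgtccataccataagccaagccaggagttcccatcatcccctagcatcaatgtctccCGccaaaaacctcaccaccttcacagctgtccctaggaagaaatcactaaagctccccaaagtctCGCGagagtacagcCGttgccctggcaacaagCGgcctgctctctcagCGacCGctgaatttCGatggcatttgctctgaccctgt
Bcl2l14, homozygous-only, chr6:134414178-134414477, plus strand: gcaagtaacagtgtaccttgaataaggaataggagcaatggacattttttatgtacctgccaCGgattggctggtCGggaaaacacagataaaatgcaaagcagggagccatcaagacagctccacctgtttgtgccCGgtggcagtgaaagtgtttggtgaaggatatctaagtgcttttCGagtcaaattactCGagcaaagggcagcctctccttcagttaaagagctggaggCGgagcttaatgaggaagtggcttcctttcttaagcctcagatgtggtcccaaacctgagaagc
Inava, homozygous-only, chr1:136234231-136234530, minus strand: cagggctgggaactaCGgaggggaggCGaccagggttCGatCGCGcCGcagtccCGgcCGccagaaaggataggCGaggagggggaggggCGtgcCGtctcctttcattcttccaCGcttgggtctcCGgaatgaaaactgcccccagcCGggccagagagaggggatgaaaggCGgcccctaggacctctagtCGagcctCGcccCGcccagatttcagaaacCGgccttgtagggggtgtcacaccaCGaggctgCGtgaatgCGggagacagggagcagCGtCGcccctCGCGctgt
Cdca7l, heterozygous-only, chr12:117843611-117843910, plus strand: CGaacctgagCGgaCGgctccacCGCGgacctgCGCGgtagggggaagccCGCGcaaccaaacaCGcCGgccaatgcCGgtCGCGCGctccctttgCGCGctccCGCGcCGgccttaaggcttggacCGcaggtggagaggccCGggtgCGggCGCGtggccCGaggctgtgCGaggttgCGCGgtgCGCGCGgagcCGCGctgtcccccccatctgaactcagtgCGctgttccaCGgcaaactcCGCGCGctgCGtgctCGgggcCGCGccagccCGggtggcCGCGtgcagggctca
Higd1a, heterozygous-only, chr9:121857747-121858046, minus strand: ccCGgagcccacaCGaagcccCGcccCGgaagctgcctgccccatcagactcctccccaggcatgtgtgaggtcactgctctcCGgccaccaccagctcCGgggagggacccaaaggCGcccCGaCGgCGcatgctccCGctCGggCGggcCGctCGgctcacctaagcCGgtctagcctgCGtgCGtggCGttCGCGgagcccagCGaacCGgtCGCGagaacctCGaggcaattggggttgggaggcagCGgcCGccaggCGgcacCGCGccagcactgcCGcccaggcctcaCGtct
Sh3d21, heterozygous-only, chr4:126163292-126163591, minus strand: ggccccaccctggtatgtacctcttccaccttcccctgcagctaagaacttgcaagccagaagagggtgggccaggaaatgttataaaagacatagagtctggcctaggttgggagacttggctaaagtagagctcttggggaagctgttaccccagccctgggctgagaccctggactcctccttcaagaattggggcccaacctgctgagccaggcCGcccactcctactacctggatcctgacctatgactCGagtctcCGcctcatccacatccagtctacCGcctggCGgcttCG

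The Agbl3 start held a homozygous peak of −log10 q 166 with an estimated 205 reads at its summit, and the nearest heterozygous peak lay 96282 bp away. Its 300 bases hold 10 CG dinucleotides. The Bcl2l14 start held a homozygous peak of −log10 q 84.1 with 117 reads and 6 CG dinucleotides. The Inava start held a homozygous peak of −log10 q 68.2 with 74 reads and 26 CG dinucleotides. The homozygous examples thus range from CG-poor to CG-rich. The Cdca7l start held a heterozygous peak of −log10 q 58.2 with 93 reads and 46 CG dinucleotides, and the nearest homozygous peak lay 456485 bp away. The Higd1a start held a heterozygous peak of −log10 q 51.9 with 73 reads and 33 CG dinucleotides. The Sh3d21 start held a heterozygous peak of −log10 q 45.3 with 73 reads and 6 CG dinucleotides. Wild type had a peak at each of these starts except Bcl2l14.

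Over all gene starts, those covered by a homozygous-only region were poorer in CG than those covered by a heterozygous-only region. The median was 14 CG dinucleotides per 300 bases for 168 homozygous-only starts (quartiles 7 and 24) and 21 for 189 heterozygous-only starts (quartiles 11 and 31). Starts with a peak in both knockouts had a median of 23 (6387 starts), and starts with no knockout peak had 6 (14456 starts). The median GC content was 59.2% at homozygous-only and 65.7% at heterozygous-only starts. The homozygous-only starts thus lay between unmarked and shared starts, and the heterozygous-only starts lay nearer to the shared ones. The quartile ranges of the one-sided sets overlap widely.

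**Figure D1:**
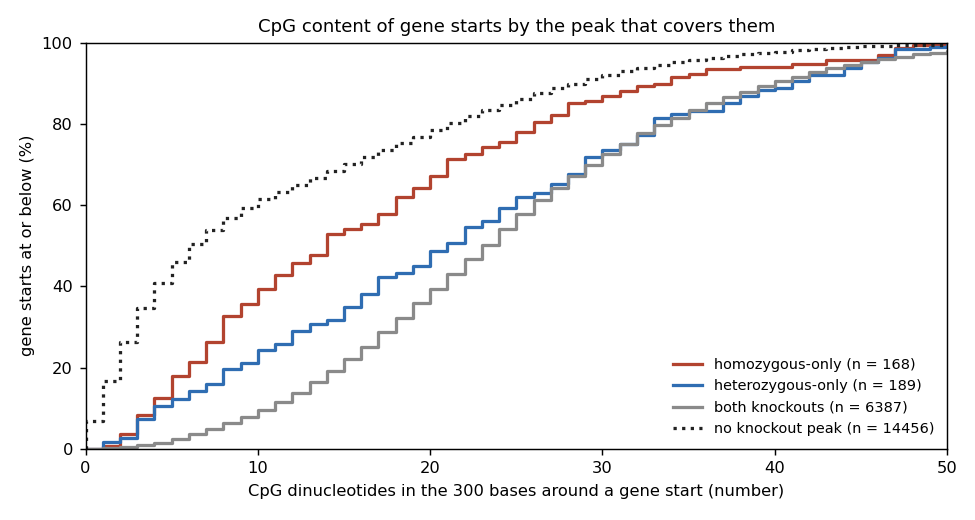
Cumulative share of gene starts (percent, vertical) by the number of CpG dinucleotides in the 300 bases around the start (horizontal), for starts covered by a homozygous-only region, a heterozygous-only region, a region of both knockouts or none. The homozygous-only curve (median 14) runs between the curve for no knockout peak (median 6) and the heterozygous-only curve (median 21), which meets that of both knockouts (median 23) at high CpG numbers.

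Of 6 short motifs searched on both strands, every one had overlapping intervals between the sets. The AP-1 motif TGANTCA was in 7.14% of homozygous-only starts (95% Wilson interval 4.13 to 12.1) and in 6.35% of heterozygous-only starts (3.67 to 10.8), against 6.99% of all listed starts. The letters TATAAA were in 8.33% of homozygous-only and 8.47% of heterozygous-only starts, against 12.6% of all. The forkhead motif TGTTTAC was in 1.19% of homozygous-only (0.327 to 4.24) and 3.17% of heterozygous-only starts (1.46 to 6.75). The E-box CANNTG was in 69.0% of homozygous-only (61.7 to 75.5) and 61.4% of heterozygous-only starts (54.3 to 68.0). The TEAD motif GGAATG was in 7.74 and 8.99% and the CTCF core AGGGGGC in 14.9 and 18.5% of homozygous-only and heterozygous-only starts. All starts held these 4 motifs in 3.01, 69.02, 13.6 and 12.9%. Intervals here and below cover counting error only.

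Most one-sided peaks were weak ones. When each library's regions were split into 4 equal groups by −log10 q, the homozygous-only share was 57.8, 38.7, 15.5 and 2.28% from the weakest to the strongest group. The heterozygous-only share was 45.4, 28.1, 13.7 and 2.69%. Median widths were 354 bp in homozygous-only, 358 bp in heterozygous-only and 695 bp in shared regions. A one-sided region was called strong when its −log10 q reached the median of its own list. There were 1521 strong homozygous-only regions (3.63% of the merged regions) and 1304 strong heterozygous-only regions (3.11%). When both lists were cut to the same number of strongest peaks, the order of the strong counts turned, with 1175 homozygous-only and 1392 heterozygous-only ones. At the 1 kb limit itself, 162 homozygous regions lay up to 500 bp beyond it from the nearest heterozygous peak and so belong to the set, and 326 lay up to 500 bp short of it and do not. On the other side these counts were 100 and 212.

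Wild type had a peak in fewer than 1 in 2 regions of either set. It had one in 39.3% of homozygous-only regions (38.4 to 40.3) and in 42.8% of heterozygous-only regions (41.7 to 44.0), against 92.3% of shared regions. Among strong regions the order was the other way, with 61.9% (59.5 to 64.3) of homozygous-only and 59.8% (57.1 to 62.4) of heterozygous-only regions, and there the intervals overlap. The sets therefore hold both kinds of difference. In 3764 homozygous-only and 2891 heterozygous-only regions, wild type had the peak too and the other knockout lacked it. In 5802 homozygous-only and 3858 heterozygous-only regions, neither wild type nor the other knockout had one.

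The sets lay differently with respect to genes. Inside gene bodies lay 52.7% of homozygous-only regions (51.7 to 53.7) and a lower 41.4% of heterozygous-only regions. Within 1 kb of a gene start, or of either gene end where the strand is not given, lay 7.93% of homozygous-only and 10.3% of heterozygous-only regions, against 59.0% of shared regions. The remaining 39.3% of homozygous-only and 48.4% of heterozygous-only regions were intergenic. The median distance to the nearest start was 29.5 kb for homozygous-only and 34.8 kb for heterozygous-only regions. Both sets were thus mostly distal, the homozygous one more often in gene bodies and the heterozygous one more often between genes.

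**Figure D2:**
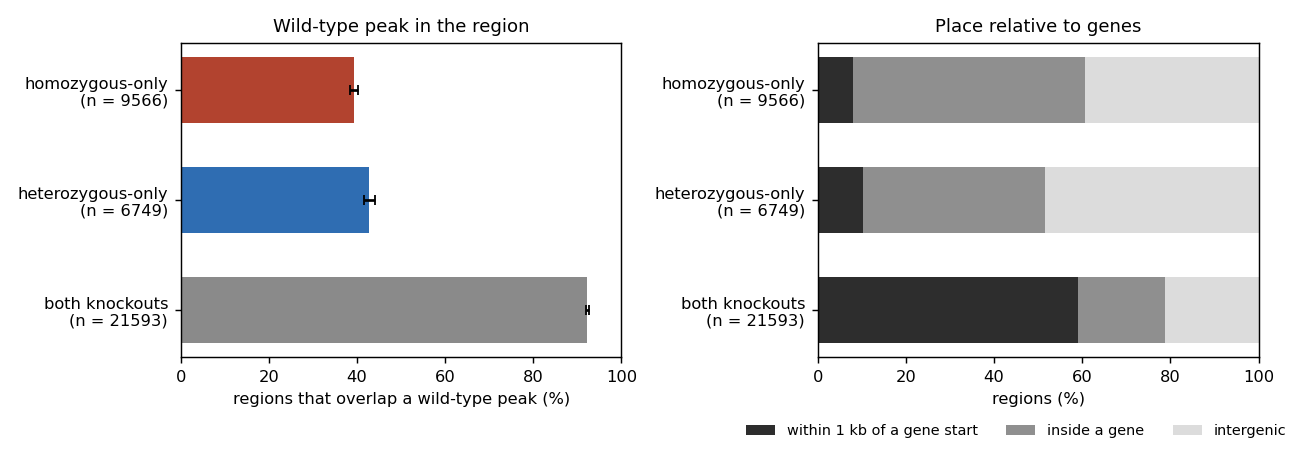
Left, the share of homozygous-only, heterozygous-only and shared regions that overlap a wild-type peak (percent, bars, with 95% Wilson intervals for counting error). Right, the share of each set within 1 kb of a gene start, inside a gene or intergenic (percent). Wild type has a peak in 39.3% of homozygous-only and 42.8% of heterozygous-only regions, against 92.3% of shared ones, and inside a gene lie 52.7, 41.4 and 19.8%.

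Every region was assigned to the nearest gene start within 100 kb, or to the nearest gene end where the strand is not given. Nearness does not show that a region acts on a gene. Of 13437 genes with a knockout region, 3434 had more homozygous-only regions (25.6%) and 2185 had more heterozygous-only regions (16.3%). One-sided regions of both kinds lay near 877 genes. A start peak was present in the homozygous and absent in the heterozygous library for 576 genes (2.63% of all), and 393 of these had it in wild type. The reverse held for 548 genes (2.5%), and 399 of these had it in wild type. In 85 genes all regions, at least 4, were homozygous-only, and in 60 genes all were heterozygous-only.

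Ntrk3, the receptor of neurotrophin 3, had the most regions among genes whose regions were all homozygous-only. It had 10 regions in the homozygous library and 0 in the heterozygous library, with 19 wild-type peaks. The nearest heterozygous peak to any of them lay 192393 bp away, and 2 of the 10 were strong. The strongest spanned chr7:78506628-78507238, inside the gene body, with −log10 q 25.2 and 47 reads. Wild type had a peak in 6 of the 10 regions, so that the heterozygous library stood apart from both others at Ntrk3.

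Ccnd2, cyclin D2, which drives entry into the cell cycle and beta cell growth, had 8 regions in the homozygous library and 0 in the heterozygous library, with 7 wild-type peaks. One of them spanned chr6:127149325-127151016 inside the gene, with −log10 q 73.7 and 156 reads at the summit. Wild type had a peak in 5 of the 8. Outside the gene, a heterozygous peak at chr6:127109125-127109475 (−log10 q 24.5) overlapped a homozygous and a wild-type peak. Its region was assigned to another gene. Abat, the transaminase that breaks down GABA, had 8 homozygous and 0 heterozygous regions and 9 wild-type peaks. Its homozygous-only regions included 1 at an end of the gene, chr16:8513503-8514232, with −log10 q 60.4 and 94 reads, and a pair of regions inside the gene with 107 and 122 reads. Beyond Abat, heterozygous peaks lay at chr16:8636743-8637573 (−log10 q 43.5) and chr16:8671195-8672126 (−log10 q 62.1). Both overlapped homozygous peaks, and their regions were assigned to other genes. In each of these 3 genes, most homozygous-only regions also had a wild-type peak.

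Other genes had homozygous-only regions that wild type lacked. Il7, a cytokine that lymphocytes require, had 7 homozygous regions, 0 heterozygous regions and 0 wild-type peaks. One end of the gene lay in a homozygous peak at chr3:7611883-7613764 with −log10 q 50.7 and 173 reads. Adamts16, a secreted metalloprotease, had 6 homozygous regions with 0 in each of the other 2 libraries. Wnt5a, a ligand of noncanonical WNT signalling, had 4 homozygous regions with 0 in each of the others, and the strongest had −log10 q 43.3 and 70 reads. Cdh1, E-cadherin, had 8 homozygous-only regions and 1 heterozygous-only region, and wild type had a peak in 1 of the 8. At Degs2, a sphingolipid hydroxylase, 8 homozygous-only regions followed each other over 34368 bp, none with a wild-type peak, and 3 of them lay in the body of the neighbouring Evl. Hk1, a hexokinase that islet beta cells normally keep low, had 6 homozygous-only and 0 heterozygous-only regions, none with a wild-type peak.

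On the heterozygous side, Crtac1, a secreted matrix protein, had 0 regions in the homozygous library and 8 in the heterozygous library, with 10 wild-type peaks. They covered a listed start and ran over 41434 bp, and wild type had a peak in 6 of the 8. The strongest spanned chr19:42462191-42462915 with −log10 q 59.8 and 189 reads. Beyond the gene, a homozygous peak at chr19:42255274-42255640 (−log10 q 14.4) overlapped a heterozygous one, and their region was not assigned to Crtac1. Cdca7l had 0 homozygous and 8 heterozygous regions and 4 wild-type peaks. Plxna1, a semaphorin receptor, had 0 homozygous and 9 heterozygous regions and 2 wild-type peaks. Spock1, a testican proteoglycan, had 0 homozygous and 9 heterozygous regions and 9 wild-type peaks. None of Spock1's regions was strong, whereas Crtac1 had 5 strong ones.

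Dusp6, the phosphatase that switches off ERK and is itself an ERK target, had its start peak in both knockouts and differed in the regions around it. It had 2 homozygous and 10 heterozygous regions and 3 wild-type peaks. The 8 heterozygous-only ones lay up to 58200 bp from the start, 4 were strong, and wild type had a peak in 1. Unc5b, a netrin receptor, had 2 homozygous and 12 heterozygous regions and 4 wild-type peaks. Its 8 heterozygous-only regions held no wild-type peak, and the strongest, at chr10:60804703-60805664, had −log10 q 71.6 and 144 reads. Pdgfra, the receptor of PDGF-A, had 0 homozygous and 6 heterozygous regions and 1 wild-type peak. Nfib, a nuclear factor I transcription factor, had 0 homozygous and 6 heterozygous regions and 2 wild-type peaks, with a peak at an end of the gene of −log10 q 55.5 and 103 reads. Lrp5, a WNT co-receptor, had 0 homozygous and 6 heterozygous regions and 8 wild-type peaks.

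**Figure D3:**
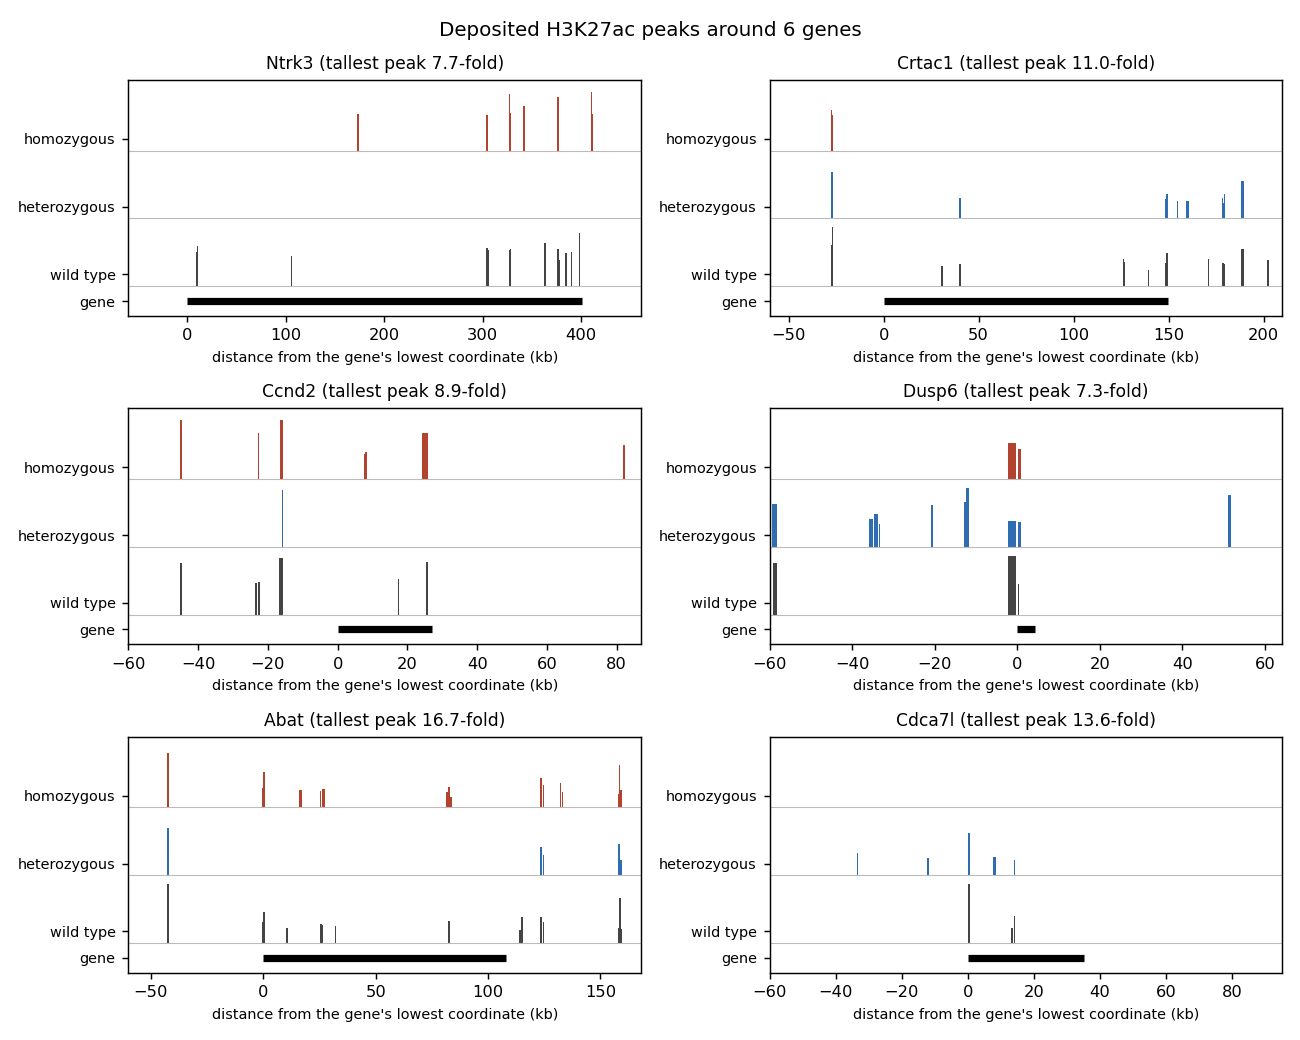
Deposited H3K27ac peaks in the homozygous, heterozygous and wild-type library around Ntrk3, Ccnd2 and Abat (left) and Crtac1, Dusp6 and Cdca7l (right). The horizontal axis is the distance in kb from the gene's lowest coordinate, bars stand for peaks, drawn slightly wider than they are, with heights in fold enrichment scaled to the tallest peak of the panel and not to be compared between libraries, and the black bar is the gene. Ntrk3 lacks heterozygous peaks and Cdca7l lacks homozygous ones, while Dusp6 has its start peaks in all 3 libraries and most of its outer peaks in the heterozygous library alone. Some peaks beyond Ccnd2, Abat and Crtac1 were not assigned to these genes and are not in their counts.

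Some one-sided regions stood in rows. A cluster was at least 4 one-sided regions of 1 set with gaps of at most 20 kb and no peak of the other knockout between them. There were 225 homozygous-only clusters with 1021 regions and 159 heterozygous-only clusters with 741 regions. With lists of equal length this order turned, to 139 and 173 clusters. No wild-type peak lay in the regions of 47 homozygous-only and 35 heterozygous-only clusters. The longest homozygous-only clusters with a gene had 8 regions, near Degs2, Gal and Slc2a2 with its neighbour Tnik. The longest heterozygous-only cluster had 10 regions, in Mapk4, an atypical MAP kinase, where wild type had a peak in 9. Stpg4 and Crtac1 each had a heterozygous-only cluster of 8.

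Gene lists were read against the split over all genes, where 7526 one-sided regions were homozygous-only and 5050 heterozygous-only, a homozygous share of 59.8%, and where the median net count per gene was 0. A net count is homozygous-only minus heterozygous-only regions. With lists of equal length the share over all genes was 52.7%, and under the other alternatives it was 59.3 to 63.4%, so a list's share is read against the share over all genes under the same setting. Neuronal markers, many of which beta cells share, had the most homozygous-only regions of the 34 lists. Their 28 genes, all with a knockout region, had 64 homozygous-only and 19 heterozygous-only regions, a share of 77.1%, with a median net count of 1. More homozygous-only regions were found for 16 genes and more heterozygous-only regions for 2. Wild type had a peak in 34 of the 64 and in 12 of the 19. Strong regions numbered 14 homozygous-only and 3 heterozygous-only.

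Within that list, Sv2c, a synaptic vesicle glycoprotein, had 8 homozygous and 0 heterozygous regions and 3 wild-type peaks, and its start was covered in the homozygous library alone, with 147 reads. Nefm, a neurofilament, had 9 homozygous and 3 heterozygous regions and 7 wild-type peaks. Map2, a dendritic microtubule protein, had 7 homozygous and 2 heterozygous regions and 9 wild-type peaks. Dpp6, a potassium channel subunit, had 6 homozygous and 1 heterozygous regions and 7 wild-type peaks. Elavl4 and Rbfox3, RNA-binding proteins of neurons, had 5 and 3 homozygous-only regions and no heterozygous-only ones. Celf4, another RNA-binding protein, ran the other way, with 2 homozygous-only and 7 heterozygous-only regions.

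Cell cycle genes had 24 homozygous-only regions and 1 heterozygous-only region, a homozygous share of 96.0%. Of 30 genes with a region, 10 had more homozygous-only regions and none had more heterozygous-only ones. The median net count was 0, because 20 genes had as many of each or no one-sided region. Ccnd2 supplied 8 of the 24. Cdk1, the mitotic kinase, had 7 homozygous and 3 heterozygous regions and 5 wild-type peaks. Ccnb2, cyclin B2, had 4 homozygous and 2 heterozygous regions and 3 wild-type peaks. Ccnd1, cyclin D1, had 2 homozygous regions, 0 heterozygous regions and 0 wild-type peaks. Only 3 of the 24 were strong, and wild type had a peak in 7.

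The WNT pathway had 30 homozygous-only and 9 heterozygous-only regions, a share of 76.9%, with 11 genes on the homozygous side and 3 on the heterozygous side. At gene starts the order was the other way. A start peak in the homozygous and not the heterozygous library was found for 1 gene of the list, and the reverse for 3. Among ligands, Wnt5a is given above, and Wnt11 had 6 homozygous and 1 heterozygous regions and 6 wild-type peaks. All 5 homozygous-only regions given to Wnt11 lie in the body of another gene, and when a region is given to the gene that holds it, Wnt11 has 0. Wnt4 had 2 heterozygous-only regions and no homozygous-only one. The co-receptor Lrp5, with 0 homozygous-only and 6 heterozygous-only regions, is not in the list, and with it the counts are 30 and 15, a share of 66.7%. Among receptors in the list, Fzd5 had 6 homozygous and 2 heterozygous regions and 3 wild-type peaks.

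Genes of GABA, glutamate and amine handling had 29 homozygous-only and 10 heterozygous-only regions, a share of 74.4%, with 10 genes on the homozygous and 4 on the heterozygous side. Abat supplied 8 of the 29. Tph2, a tryptophan hydroxylase of serotonin synthesis, had 5 homozygous and 1 heterozygous regions and 4 wild-type peaks, with its start covered in the homozygous library and not in the heterozygous one. Maob, a monoamine oxidase, had 3 homozygous and 0 heterozygous regions and 5 wild-type peaks. Slc18a1, a vesicular monoamine transporter, had 1 homozygous and 4 heterozygous regions and 4 wild-type peaks. Wild type had a peak in 19 of the 29 and in 6 of the 10.

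Cholesterol and lipid synthesis had 25 homozygous-only and 12 heterozygous-only regions, a share of 67.6%, with 8 strong ones against 1. Ppargc1a, a coactivator of mitochondrial genes, had 5 homozygous and 0 heterozygous regions and 2 wild-type peaks. Srebf1, the SREBP1 transcription factor, had 7 homozygous and 5 heterozygous regions and 9 wild-type peaks. Pparg, a lipid-sensing nuclear receptor, stood on the other side with 2 homozygous and 6 heterozygous regions and 1 wild-type peak. Subunits of all SWI/SNF forms, ARID1A and subunits of forms without it included, had 19 homozygous-only and 11 heterozygous-only regions, a share of 63.3%, which was below the share over all genes in 2 of 8 settings. Dpf1, a subunit of the neuronal complex, had 4 homozygous-only regions, and Smarca4, the ATPase BRG1, had 3, each with 0 heterozygous-only ones. Bicra, a subunit of the noncanonical complex, had 0 homozygous-only and 3 heterozygous-only regions.

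**Figure D4:**
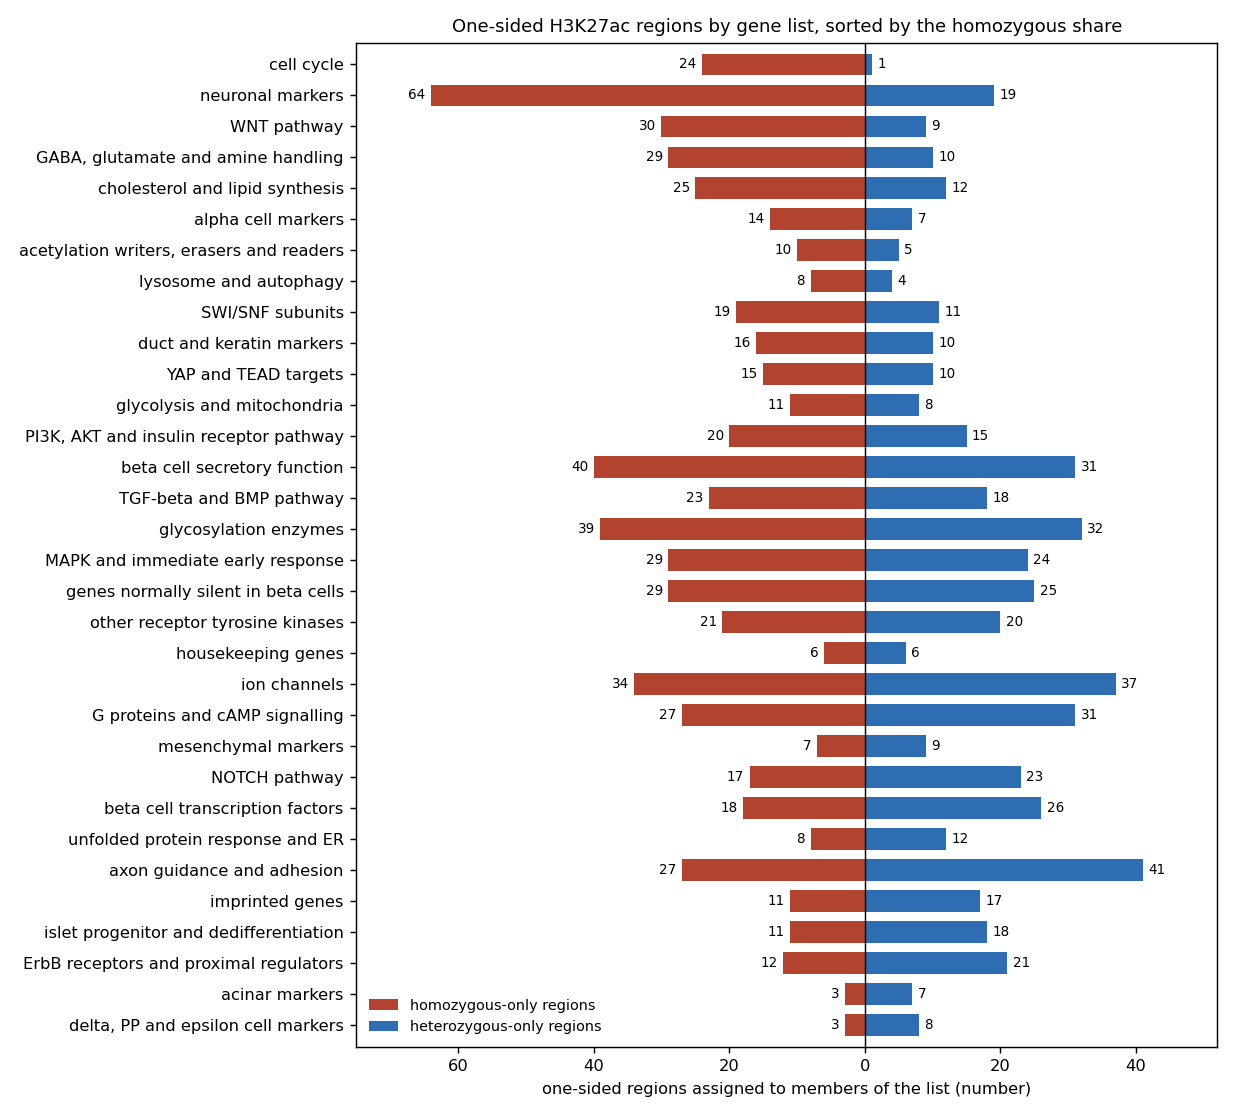
Number of homozygous-only regions (left) and heterozygous-only regions (right) assigned to the genes of each list with at least 8 one-sided regions, sorted by the homozygous share. Cell cycle (24 and 1) and neuronal markers (64 and 19) stand at the top, and ErbB receptors (12 and 21), acinar markers (3 and 7) and delta, PP and epsilon cell markers (3 and 8) at the bottom, against 7526 and 5050 over all genes.

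Beta cell genes differed among themselves. Beta cell transcription factors had 18 homozygous-only and 26 heterozygous-only regions, a homozygous share of 40.9%, with 6 genes on the homozygous and 11 on the heterozygous side. With both lists limited to −log10 q of at least 10 the counts were 19 and 18, and with regions given to the gene that holds them 28 and 25. The homozygous share stayed below that of all genes in each of 8 settings. Bach2, a transcriptional repressor, had 3 homozygous and 0 heterozygous regions and 1 wild-type peak. Pdx1, the master regulator of the pancreas, had 3 homozygous-only regions and 1 heterozygous-only region. The homozygous-only ones lay between 1.5 and 1.7 times a high local background of 101 to 125 reads, and with −log10 q of at least 10 the counts were 0 and 1.

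Beta cell secretory genes had 40 homozygous-only and 31 heterozygous-only regions, a share of 56.3%. With lists of equal length the counts were 30 and 38, and with assignment within 20 kb 12 and 18. The share lay below that of all genes, but above it in 2 of 8 settings. Slc2a2, the glucose transporter GLUT2 of mouse beta cells, had 7 homozygous regions, 1 heterozygous region and 6 wild-type peaks. Its homozygous-only regions included chr3:28695174-28696179, 1724 bp from the start, with −log10 q 36.9 and 143 reads. Abcc8, the sulfonylurea receptor of the KATP channel, had 14 homozygous and 8 heterozygous regions and 10 wild-type peaks. Cacna1c, an L-type calcium channel, had 12 homozygous and 7 heterozygous regions and 15 wild-type peaks. Ucn3, a marker of mature beta cells, had 4 homozygous and 0 heterozygous regions and 1 wild-type peak.

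Markers of other pancreatic cell types were few. Alpha cell markers had 14 homozygous-only and 7 heterozygous-only regions over 8 genes with a region, with a start peak in the homozygous and not the heterozygous library for 4 genes of the list and the reverse for 2. At Gcg, the glucagon gene, the homozygous library had a start peak of −log10 q 7.33 and a strong intergenic region of −log10 q 22.7 and 41 reads, 26978 bp from the start. The heterozygous library had a peak 2695 bp from the start of Gcg, with −log10 q 67.0 and 101 reads, and wild type had 0 peaks. Dpp4, a neighbour of Gcg, had 4 homozygous-only and 1 heterozygous-only regions and 1 wild-type peak. Delta, PP and epsilon cell markers had 3 homozygous-only and 8 heterozygous-only regions, and acinar markers 3 and 7. Duct and keratin markers had 16 and 10, mesenchymal markers 7 and 9, and immune and endothelial markers 3 and 4. In this order the homozygous shares were 27.3, 30.0, 61.5, 43.75 and 42.9%, and 66.7% for alpha cell markers, against 59.8% over all genes. The duct and keratin share lay on the other side of that of all genes in 6 of 8 settings. Cdh1 supplied 8 of its 16 homozygous-only regions, and Cldn4 5 of its 10 heterozygous-only ones. The part of these cell types in the results was not tested.

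The lists on growth factor signalling differed in their balance. ErbB receptors and their proximal regulators had 12 homozygous-only and 21 heterozygous-only regions, a homozygous share of 36.4%, with 6 genes on the homozygous and 9 on the heterozygous side. Egfr, the EGF receptor, had 1 homozygous and 6 heterozygous regions and 0 wild-type peaks, and its start lay in a heterozygous peak with 37 reads and in no homozygous one. Eps8, a substrate of the EGF receptor, had 0 homozygous and 6 heterozygous regions and 12 wild-type peaks. Plcg1 ran the other way, with 2 homozygous-only regions, both strong and with a wild-type peak, and 1 heterozygous-only region. Strong regions of the list numbered 4 homozygous-only and 4 heterozygous-only. With −log10 q of at least 10 the list had 15 regions of each kind, and within 20 kb it had 10 of each. EGF family ligands had 3 homozygous-only regions and 1 heterozygous-only region.

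Downstream, the MAPK and immediate early genes had 29 homozygous-only and 24 heterozygous-only regions, a homozygous share of 54.7% against 59.8% over all genes. Strong ones numbered 6 homozygous-only and 10 heterozygous-only, against 1223 and 1001 over all genes. The cutoff for strong was a −log10 q of 22.6 in the homozygous and 18.5 in the heterozygous list. Dusp6 supplied 4 and Jun 3 of the 10, and Fosl2 supplied 2 of the 6. With lists of equal length the list had 24 homozygous-only and 25 heterozygous-only regions, a share of 48.98% against 52.7% over all genes. Dusp6 is described above. Jun, an AP-1 subunit, had 1 homozygous-only and 4 heterozygous-only regions, and wild type had a peak in all 5. Fosl2, its partner FRA2, had 4 homozygous-only and 0 heterozygous-only regions. Phlda1, an early response gene, had 6 homozygous-only regions and 1 heterozygous-only region. Other receptor tyrosine kinases had 21 and 20, a share of 51.2%, and this order turned in 3 of 8 settings. The PI3K, AKT and insulin receptor pathway had 20 and 15, a share of 57.1%, which was above that of all genes in 4 of 8 settings.

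Axon guidance and adhesion genes leaned to the heterozygous side, unlike the neuronal markers. They had 27 homozygous-only and 41 heterozygous-only regions, a homozygous share of 39.7%, and Unc5b and Plxna1 supplied 17 of the 41. With regions given to the gene that holds them the counts were 60 and 57. The share stayed below that of all genes in each of 8 settings. Ntn1, netrin 1, the ligand of the UNC5 receptors, had 3 homozygous and 8 heterozygous regions and 5 wild-type peaks. Sema6a, a transmembrane semaphorin, had 10 homozygous and 5 heterozygous regions and 7 wild-type peaks.

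The NOTCH pathway had 17 homozygous-only and 23 heterozygous-only regions, an order that turned in 2 of 8 settings, while the share stayed below that of all genes in each. The receptor Notch1 had 4 homozygous-only and 0 heterozygous-only regions, and so had the ligand Dll1. The target Hes1 had 3 and 0. The coactivator Maml2 had 0 homozygous and 6 heterozygous regions and 4 wild-type peaks. Dlk1 had 1 homozygous-only and 4 heterozygous-only regions, and Dll4 had 1 and 3. In the list, 5 genes had more homozygous-only and 7 more heterozygous-only regions. For 4 of its genes a start peak was present in the heterozygous and not the homozygous library, and the reverse held for 0. Islet progenitor and dedifferentiation genes had 11 homozygous-only and 18 heterozygous-only regions, and 13 and 12 with −log10 q of at least 10. The TGF-beta and BMP pathway had 23 and 18, a homozygous share of 56.1% against 59.8% over all genes, and it was above that of all genes in 3 of 8 settings. Smad3, a signal transducer of TGF-beta, had 1 homozygous-only and 6 heterozygous-only regions, whereas Tgfb3 and Tgfbr3 each had 4 and 0.

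One microRNA locus, picked with its values in view, is described out of 1005 annotated hairpins. Strong homozygous-only regions lay within 5 kb of 7 hairpins and strong heterozygous-only regions within 5 kb of 12, of which 6 belong to the Mir17 cluster on chromosome 14. This cluster makes microRNAs that promote proliferation. The homozygous library had 0 peaks in the 50 kb around it. The heterozygous library had 2, and the stronger, at chr14:115041530-115042221, had −log10 q 28.6 and 45 reads. Wild type had 1, with −log10 q 7.47 and 16 reads. The 6 microRNAs fall into 4 seed groups, and the seed, bases 2 to 8, which pairs with target RNAs, is in capitals.
mmu-miR-17-5p: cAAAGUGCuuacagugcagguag
mmu-miR-20a-5p: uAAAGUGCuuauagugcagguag
mmu-miR-18a-5p: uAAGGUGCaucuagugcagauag
mmu-miR-19a-3p: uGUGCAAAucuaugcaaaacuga
mmu-miR-19b-3p: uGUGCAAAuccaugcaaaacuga
mmu-miR-92a-3p: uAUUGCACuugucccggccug

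The balance between the sets varied over the chromosomes. Chromosome 3 had 572 homozygous-only and 292 heterozygous-only regions, a ratio of 1.96. Chromosome 2 had 536 homozygous-only and 573 heterozygous-only regions, a ratio of 0.935, and 67 and 98 strong ones. It was the only chromosome, among 1 to 19 and X, with fewer homozygous-only than heterozygous-only regions. Chromosome 12 had the highest homozygous-only share, 29.1% of its regions. On chromosome 11 the strong regions leaned to the heterozygous side, with 78 homozygous-only and 104 heterozygous-only ones. The copy number of each chromosome in these clones was not measured, and its part in these counts was not tested.

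**Figure D5:**
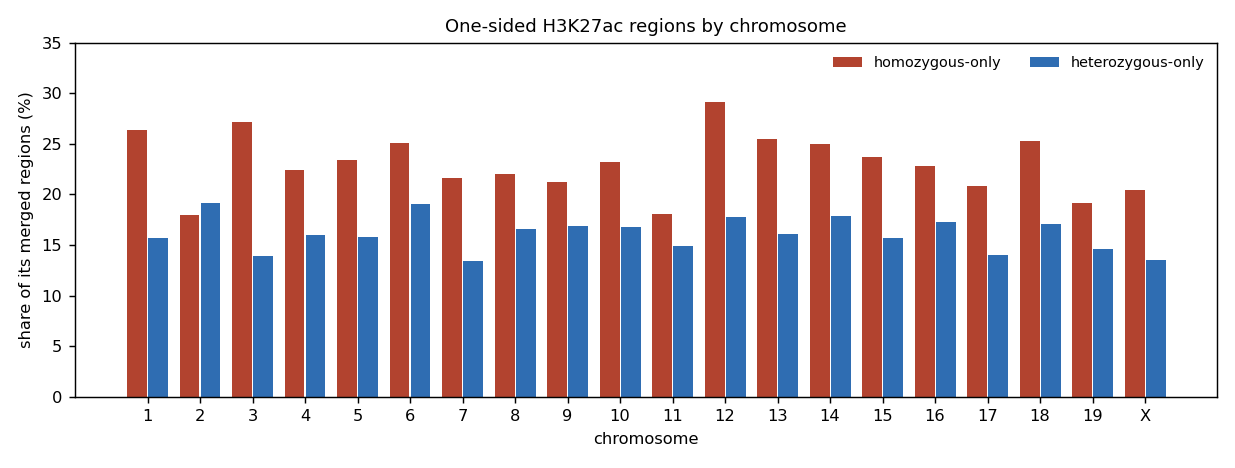
Share of each chromosome's merged regions (percent, vertical) that were homozygous-only or heterozygous-only, for chromosomes 1 to 19 and X. Chromosome 2 is the only one where the heterozygous-only bar is higher (17.95 and 19.2%), and chromosome 3 has the widest gap (27.2 and 13.9%).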

How the data were processed

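H3K27ac ChIP-seq of 3 MIN6 clones, sequenced as 75 bp single reads, was analysed from 1 deposited peak list per clone. Peaks had been called per library with MACS2 on mm10 after bcl2fastq, per the submitters' processing notes, which give no versions. Aligner, control and threshold: not given in the sources used here. The deposited lists give each peak a fold enrichment, which is a ratio to the local background in the same library, a −log10 p, a −log10 q, and a score, which the authors' format derives from the −log10 q. These values rank or filter peaks within a list only. In the wild-type file, peaks are named with GAL4, a tag that the labels leave unexplained. Read totals are not known. Summit and background reads were solved from the deposited fold and −log10 p to within 0.001, assuming a Poisson tail and fold as summit plus 1 over background plus 1, for 34291 homozygous, 31361 heterozygous and 41483 wild-type peaks.

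Peaks of both knockout libraries that overlapped by at least 1 bp were merged with pandas 2.3.3, numpy 2.4.6 and scipy 1.17.1 under Python 3.11.15, and all 41933 regions were identical to those of bedtools 2.31.1. The assignment was also tested on simulated peaks. Figures were drawn with matplotlib 3.10.9. Starts came from a RefSeq table of GRCm38.p6 that is not complete. It gave strand and start for 17492 of 21887 protein-coding genes, and for the other 4395 both ends were used. With no genome given, sequence content was read from 21263 RefSeq starts and not from the regions as planned. Of 915 entries in 34 gene lists, 913 matched a symbol. With 1 library per genotype, counts are given without tests.

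The members and the gene lists were chosen with earlier results of these data known. Genes named per side were the 12 with most strong regions, the genes of the 10 strongest regions at a gene start and of the 5 highest folds, up to 12 with at least 4 regions that were all one-sided, those of the 6 largest clusters, and up to 4 members per list with at least 2 one-sided regions, plus Arid1a. The text gives a part of these. The Mir17 cluster, the printed sequences and genes outside this rule were chosen after their values were seen. Alternatives changed the distance, peak strength, list length, peak width, overlap, assignment, start window and cluster gap. Some genes of the lists are not reported here.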

Additional observations from a re-analysis of the deposited data

How the results depend on the processing

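Homozygous-only regions outnumbered heterozygous-only ones under every alternative tried, with homozygous-only counts from 7388 to 12188, and the heterozygous-only share with a wild-type peak and at a gene start stayed the higher one. With −log10 q of at least 10, there were 4422 heterozygous-only regions, 779 strong ones, and 126 homozygous-only and 66 heterozygous-only clusters. With lists of equal length there were 7737 homozygous-only and 7259 heterozygous-only regions, and 139 homozygous-only and 173 heterozygous-only clusters, and strong regions numbered 1175 and 1392, so that these orders turned. With 1 cutoff for strong regions there were 800 strong heterozygous-only ones. A cluster gap of 50 kb gave 374 homozygous-only and 254 heterozygous-only clusters. The share with a wild-type peak among homozygous-only regions was 42.9% (overlap only), 40.5% (−log10 q of at least 10), 42.1% (equal length), 40.8% (peaks of at least 250 bp), 43.6% (overlap of at least 50% of the shorter peak) and 46.4% (wild-type peak within 1 kb). Among heterozygous-only regions it was 45.7% (overlap only), 46.5% (overlap with the shorter peak) and 48.7% (within 1 kb). The share at a gene start among homozygous-only regions was 13.3, 11.6, 8.67, 9.41 and 13.7% under the first 5 of these settings and 14.8% with a 5 kb window. Among heterozygous-only regions it was 14.6% (overlap only), 13.003% (−log10 q of at least 10), 11.4% (at least 250 bp), 14.9% (overlap with the shorter peak) and 16.9% (5 kb window).

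Lists of equal length moved the homozygous share over all genes to 52.7%, against 59.8%, so net counts moved with it. Against the share over all genes under the same setting, 21 of 34 lists stayed on their side in every setting and 13 did not. The net count, which takes no account of that shift, turned sign for 13 lists. With lists of equal length it was −1 for MAPK and immediate early response, −4 for other receptor tyrosine kinases, −8 for beta cell secretory function, −3 for genes normally silent in beta cells and −2 for glycosylation enzymes. With −log10 q of at least 10 it was 1 for beta cell transcription factors, for islet progenitor genes and for the NOTCH pathway. With assignment to the gene that holds the region it was 3 for beta cell transcription factors, 15 for G proteins and cAMP signalling, 23 for ion channels, 3 for axon guidance and 4 for NOTCH. Within 20 kb it was −6 for other receptor tyrosine kinases, −6 for beta cell secretory function, −2 for silent genes and −5 for YAP and TEAD targets. Peaks of at least 250 bp gave −6 for other receptor tyrosine kinases, overlap only gave 1 for ion channels, and a distance of 5 kb gave 2 for ion channels and 1 for the unfolded protein response. Among 67 named genes, Pdx1 turned to −1 with −log10 q of at least 10, and Chga turned to 2 both within 20 kb and by gene body. The neuronal list kept 25 to 94 homozygous-only against 2 to 37 heterozygous-only regions, cell cycle 8 to 27 against 0 to 4, WNT 16 to 35 against 3 to 9, and GABA, glutamate and amine handling 17 to 35 against 5 to 12. The causes were not tested. No paired analysis was possible because each genotype has 1 library.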

Other observations

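Lists not described above are read against the 59.8% of one-sided regions that were homozygous-only over all genes. Acetylation writers, erasers and readers had 10 homozygous-only and 5 heterozygous-only regions, with 0 strong ones of either kind. Lysosome and autophagy genes had 8 and 4, YAP and TEAD targets 15 and 10, and glycolysis and mitochondria 11 and 8. The homozygous shares of these lists were 66.7, 66.7, 60.0 and 57.9%. Glycosylation enzymes had 39 and 32, genes normally silent in beta cells 29 and 25, and housekeeping genes 6 and 6, shares of 54.9, 53.7 and 50.0%. Lists with more heterozygous-only regions were ion channels with 34 and 37, G proteins and cAMP signalling with 27 and 31, imprinted genes with 11 and 17, and the unfolded protein response with 8 and 12. Of these lists, YAP and TEAD targets, glycosylation enzymes, silent genes, ion channels, G proteins and cAMP signalling, and the unfolded protein response had the order of their counts turned under at least 1 alternative. Against the share over all genes under the same setting, YAP and TEAD targets changed side in 6 of 8 settings and the acetylation genes in 4. Glycolysis and mitochondria changed side in 3, and housekeeping genes and ion channels in 1 each.

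The highest fold among strong one-sided regions was 18.9 at H2bc1, a testis histone H2B gene, on the homozygous side, and 17.99 near Mog, a myelin glycoprotein gene, on the heterozygous side, and wild type had a peak at both. Chga, the granule protein chromogranin A, had its listed start covered in the homozygous and wild-type libraries and not in the heterozygous one, while 5 heterozygous-only regions and 2 homozygous-only regions lay near it.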
